A study of Mus musculus with 12 samples.

Results

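The genes examined here were 9 genes of the interferon pathway, chosen by name from the count table of C2C12 GFP cells on different plate coatings. They comprised a ligand (*Ifnb1*), receptor chains (*Ifnar1*, *Ifnar2*, *Ifngr1*), parts of the transcription factor ISGF3 (*Stat2*, *Irf9*), and further interferon regulatory factors (*Irf1*, *Irf3*, *Irf7*). The table lists 55536 genes, and 14499 of them, including 8 of the 9, passed the filter on low counts. *Ifnb1* did not pass it.

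C2C12 is a mouse myoblast line that fuses into myotubes when serum is lowered, and the version used carries green fluorescent protein. All groups held this same line, and the study's methods describe differentiation in medium with little serum. RNA-seq was performed on cells from uncoated plates (control) and from plates bearing a layer of Collagen I, of fibronectin, or of Geltrex, a reduced-growth-factor basement membrane extract made mainly of laminin, Collagen IV, and entactin. The 12 samples were split evenly, 3 to each of these 4 plate types. The sources do not name the day on which the RNA was taken. They also do not state whether the samples of a group came from separate cultures, so the p-values measure the spread between these samples, which may be technical.

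Total counts per sample lay between 22520404 and 27351766. The 3 Geltrex samples resembled each other more than the samples of any other group did, with a chi-square per degree of freedom of 2.18 to 4.54 between pairs, compared with 7.73 to 65.1 in the other groups. They still differed by more than sampling noise and were counted as 3 samples. Values with the 3 samples summed into 1 are given beside the results of the members whose call they change, and beside some of the counts.

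Type I interferons, such as interferon beta, bind a receptor made of IFNAR1 and IFNAR2, while interferon gamma binds a receptor made of IFNGR1 and IFNGR2. Janus kinases on the type I receptor phosphorylate STAT proteins, and STAT2 and IRF9 are parts of the factor ISGF3 that then forms. ISGF3 binds the interferon-stimulated response element (ISRE), and STAT dimers bind the gamma-activated site (GAS). IRF3 and IRF7 are the factors that switch on type I interferon genes after nucleic acid sensing, and *Irf7*, *Irf9*, and *Stat2* are themselves known as interferon-induced genes. In muscle, the pathway is best known from inflammatory myopathies, in which interferon-stimulated genes are prominent.

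Promoter sequences are shown for the members that differed most between Geltrex and the control, beside that of *Oas1a*, a classical interferon target. Each window comes from RefSeq (GRCm38.p6) and covers 250 bases before to 50 bases after the start, 5′ to 3′ on the gene's strand. Capitals mark the letters of an ISRE (GAAA, a pair of any bases, and GAAA again, searched on both strands) and of a GAS (TTCNNNGAA, where N is any base and both strands read the same pattern). The windows are at chr10:128270248-128270547 (*Stat2*, plus strand), chr11:53769764-53770063 (*Irf1*, plus strand), chr7:141266375-141266674 (*Irf7*, minus strand), chr14:55603735-55604034 (*Irf9*, plus strand), and chr5:120907476-120907775 (*Oas1a*, minus strand).
Stat2: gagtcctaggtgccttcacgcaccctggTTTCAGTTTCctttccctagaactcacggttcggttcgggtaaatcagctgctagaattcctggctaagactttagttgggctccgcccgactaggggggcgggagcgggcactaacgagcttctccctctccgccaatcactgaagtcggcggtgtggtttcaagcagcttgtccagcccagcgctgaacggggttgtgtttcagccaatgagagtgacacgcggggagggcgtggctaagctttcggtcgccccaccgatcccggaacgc
Irf1: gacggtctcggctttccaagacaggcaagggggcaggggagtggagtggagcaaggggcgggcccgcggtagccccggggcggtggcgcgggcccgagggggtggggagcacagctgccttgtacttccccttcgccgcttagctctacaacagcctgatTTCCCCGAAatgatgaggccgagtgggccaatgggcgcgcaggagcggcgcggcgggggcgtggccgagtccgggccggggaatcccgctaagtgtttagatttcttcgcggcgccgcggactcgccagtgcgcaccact
Irf7: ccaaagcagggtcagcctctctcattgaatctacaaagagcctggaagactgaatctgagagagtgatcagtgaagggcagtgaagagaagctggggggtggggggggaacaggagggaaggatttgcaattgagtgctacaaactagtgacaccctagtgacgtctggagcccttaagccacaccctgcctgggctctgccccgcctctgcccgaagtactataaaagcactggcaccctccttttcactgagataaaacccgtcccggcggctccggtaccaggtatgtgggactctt
Irf9: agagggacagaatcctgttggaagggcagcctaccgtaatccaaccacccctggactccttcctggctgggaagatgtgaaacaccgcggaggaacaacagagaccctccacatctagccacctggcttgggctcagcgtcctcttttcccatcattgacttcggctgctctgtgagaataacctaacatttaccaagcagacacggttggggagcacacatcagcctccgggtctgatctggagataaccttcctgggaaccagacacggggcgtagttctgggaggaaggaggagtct
Oas1a: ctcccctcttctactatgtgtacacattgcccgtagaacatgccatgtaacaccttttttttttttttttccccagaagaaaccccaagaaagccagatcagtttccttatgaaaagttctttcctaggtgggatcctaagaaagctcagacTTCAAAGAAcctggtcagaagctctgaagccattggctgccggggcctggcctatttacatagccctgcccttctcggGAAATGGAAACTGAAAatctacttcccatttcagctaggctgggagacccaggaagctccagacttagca
In the *Stat2* window, 1 ISRE lay on the opposite strand, from 222 to 213 bases before the start. The first of the *Irf1* windows held 1 GAS, from 90 to 82 bases before the start. The *Oas1a* window held 2 overlapping ISREs in 1 capital run and a GAS upstream of them. No match to these letters lay in the window of *Irf7* or in either window of *Irf9*.

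RefSeq gave 11 windows for the 9 members, since *Irf1* and *Irf9* each have 2 starts. An ISRE lay in 1 of the 11 (9.09%), and a GAS lay in 3 of them (27.3%), those of *Irf1*, *Ifnar1*, and *Ifnar2*. Among all 32851 RefSeq windows, 3.44% held an ISRE and 8.3% held a GAS, and by gene, with 27025 genes, the shares were 3.99% and 9.55%. Of the 33 interferon target genes that had a window, 18 (54.5%) held an ISRE and 8 (24.2%) held a GAS. These matches describe letters in the windows and do not show binding. A window without a match may still hold a site, since only these exact letters were searched and only within the window.

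**Figure D1:**
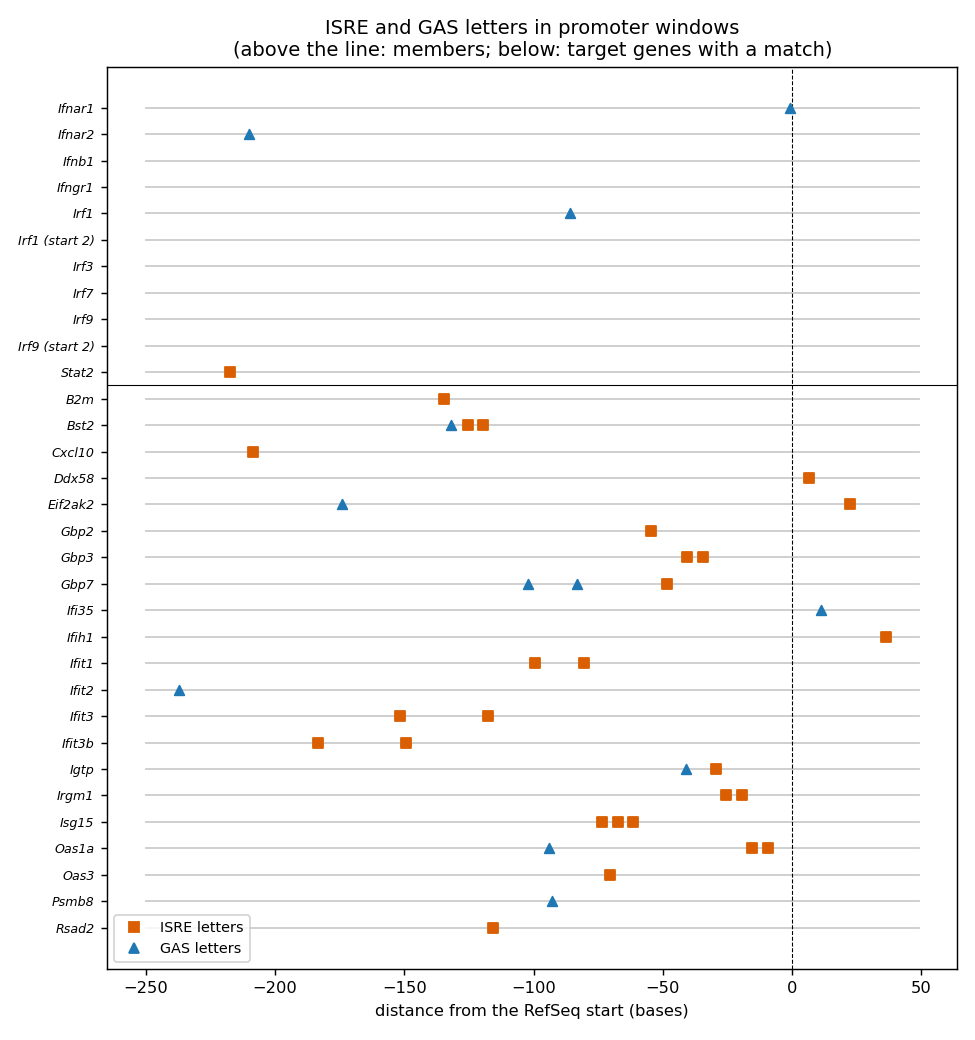
Positions of ISRE (squares) and GAS (triangles) letters in promoter windows, with the distance from the RefSeq start in bases on the x axis and 1 line per window. The 11 windows of the members are above the horizontal line and show 1 ISRE and 3 GAS, and the target genes with at least 1 match are below it.

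*Ifnb1*, the gene for interferon beta (ENSMUSG00000048806, chr4:88522025-88522774, GRCm38), was not detectable as expressed at this depth. Its count was 0 in 11 of the 12 samples and 1 in Geltrex sample 2. A limit of 3 counts corresponds to between 0.11 and 0.135 CPM (counts scaled to a common library size) in these libraries, for counting error only. None of 11 other interferon genes passed the filter. The counts of *Ifng*, the gene for interferon gamma, were 0, 1, and 3 in the control, 8, 3, and 7 on Collagen I, 0, 1, and 6 on fibronectin, and 8, 5, and 11 on Geltrex. None of these 12 interferon genes therefore had enough counts for a comparison between coatings.

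The members were present at different levels per length of exon. In CPM per kilobase of exon (FPKM), the control samples had 16.6 to 18.1 for *Ifngr1*, 9.76 to 11.1 for *Ifnar1*, 7.42 to 8.52 for *Irf1*, and 6.71 to 7 for *Stat2*. *Irf3* had 4.44 to 7.26 and *Ifnar2* 4.25 to 5.15 FPKM, and these ranges overlapped. *Irf9* (1.53 to 2.08) and *Irf7* (0.202 to 0.369) were the lowest of the members that passed the filter. On Geltrex, *Irf9* reached 3.75 to 5.27 FPKM, which overlapped the ranges of *Stat2* (4.4 to 5.65), *Irf3* (4.27 to 4.85), and *Ifnar2* (4.74 to 5.35). The length used merges all annotated exons of a gene, with 5386 bases for *Irf9* and 3776 for *Irf7*, and can exceed that of a transcript. For *Irf7* it is 1 block over the whole locus. FPKM levels and overlaps between different members therefore depend on these lengths.

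On Geltrex, *Irf7* and *Irf9* were higher than in the control by 8.07-fold and 2.41-fold, while *Stat2* and *Irf1* were lower by 1.42-fold and 1.43-fold. The receptor chain *Ifnar1* was slightly higher, and *Ifnar2*, *Ifngr1*, and *Irf3* did not pass the test. In all, 3 of the 8 members tested were higher and 2 were lower by edgeR's quasi-likelihood test with an adjusted p of at most 0.05. Of all genes tested, 33% passed in this comparison, 16.4% higher and 16.6% lower. At least 2-fold differences were found in 2 of the 8 members and in 9.14% of all genes. The groups did not overlap in 6 of the 8 members, all those that passed and *Ifngr1*, nor in 50.4% of all genes. The median log2 fold change was 0.14 over the 8 members and -0.012 over all genes.

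**Figure D2:**
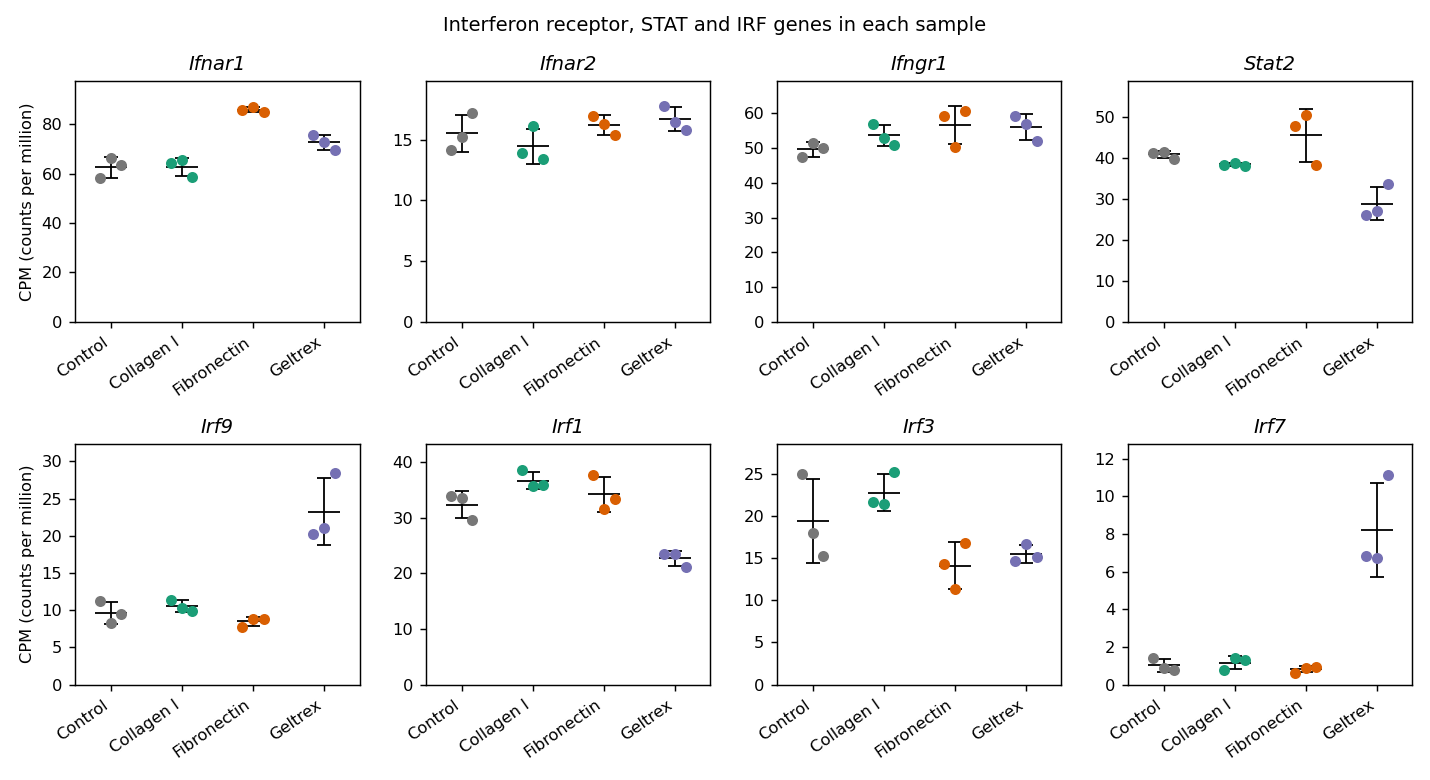
Expression of the 8 members that passed the filter, in CPM on axes that start at 0, by coating. Points are the 3 samples of each group, and bars are the mean and SD, with the Geltrex samples of *Irf7* (6.71 to 11.1 CPM) and *Irf9* (20.2 to 28.4 CPM) above every other sample.

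*Irf7* (ENSMUSG00000025498, chr7:141262706-141266481, minus strand) encodes the factor that drives most interferon alpha genes. Its level was 1.39, 0.88, and 0.764 CPM in the control, 0.78, 1.41, and 1.29 on Collagen I, 0.631, 0.879, and 0.932 on fibronectin, and 6.83, 6.71, and 11.1 on Geltrex. The lowest Geltrex sample had 160 counts and the highest sample of any other group had 38, so Geltrex did not overlap the rest, and the other groups overlapped each other. The log2 fold change of Geltrex relative to the control was 3.01 ± 0.28 (SE, 95% interval 2.42 to 3.6, edgeR adjusted p = 6.84e-07). Relative to Geltrex, the log2 fold change was -2.81 on Collagen I (7-fold lower, edgeR adjusted p = 1.05e-06) and -3.33 on fibronectin (10.1-fold lower, edgeR adjusted p = 6.72e-07). In bulk samples, fewer cells of a type and less RNA per cell cannot be told apart, which holds for every gene described here. *Irf7* shares 45 exon bases (1.2%) with *Phrf1* on the opposite strand, whose counts over all samples were 19963, compared with 795 for *Irf7*. Whether counting used the strand is not given in the sources used here. Without strand, reads of the shared bases cannot be assigned to either gene.

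*Irf9* (ENSMUSG00000002325, chr14:55603571-55610030, plus strand) encodes the DNA-binding part of ISGF3. Its level was 11.2, 8.25, and 9.43 CPM in the control, 11.4, 10.3, and 9.92 on Collagen I, 7.8, 8.83, and 8.82 on fibronectin, and 20.2, 21.1, and 28.4 on Geltrex. All 3 Geltrex samples lay above the other 9. The log2 fold change relative to the control was 1.27 ± 0.14 (SE, 95% interval 0.97 to 1.57, edgeR adjusted p = 4.77e-06). Collagen I was 2.2-fold lower than Geltrex (edgeR adjusted p = 1.42e-05) and fibronectin 2.73-fold lower (edgeR adjusted p = 3.22e-06). No pair among the other 3 groups passed the test, although all Collagen I samples lay above the fibronectin samples (log2 fold change 0.31, 95% interval 0.00096 to 0.63, edgeR adjusted p = 0.0948). *Irf9* shares 2.3% of its exon bases with *Rnf31* on the same strand, whose counts of 3417 over all samples were close to the 3759 of *Irf9*.

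*Stat2* (ENSMUSG00000040033, chr10:128270559-128292849, plus strand), which encodes the STAT that binds IRF9 in ISGF3, went the other way. It had 41.2, 41.5, and 39.8 CPM in the control, 38.3, 38.8, and 38 on Collagen I, 47.8, 50.5, and 38.1 on fibronectin, and 26.1, 26.9, and 33.5 on Geltrex. The Geltrex samples were below all others, and the third fibronectin sample lay with the control and Collagen I samples rather than with its own group. Relative to the control, *Stat2* on Geltrex fell by 0.5 on the log2 scale (SE 0.11, 95% interval -0.74 to -0.27, edgeR adjusted p = 0.00215). Fibronectin exceeded Geltrex by 0.66 (edgeR adjusted p = 0.000507) and Collagen I exceeded Geltrex by 0.41 (edgeR adjusted p = 0.00786). The last of these missed the threshold without Geltrex sample 1 (edgeR adjusted p = 0.0544) and with the Geltrex samples summed into 1 (edgeR adjusted p = 0.0798).

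*Irf1* (ENSMUSG00000018899, chr11:53770014-53778374, plus strand) encodes a factor induced by interferon gamma through GAS. Its level was 33.9, 33.6, and 29.5 CPM in the control, 38.5, 35.7, and 35.8 on Collagen I, 37.7, 31.5, and 33.4 on fibronectin, and 23.4, 23.4, and 21.2 on Geltrex. Geltrex again did not overlap the other groups, here from below. *Irf1* on Geltrex fell by 0.51 on the log2 scale relative to the control (SE 0.092, 95% interval -0.71 to -0.32, edgeR adjusted p = 0.000448). It was 0.69 higher on Collagen I than on Geltrex (edgeR adjusted p = 2.75e-05) and 0.59 higher on fibronectin than on Geltrex (edgeR adjusted p = 0.00027). *Irf1* shares 3.4% of its exon bases with *Gm17334* on the opposite strand, which had 55 counts in all samples together.

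**Figure D3:**
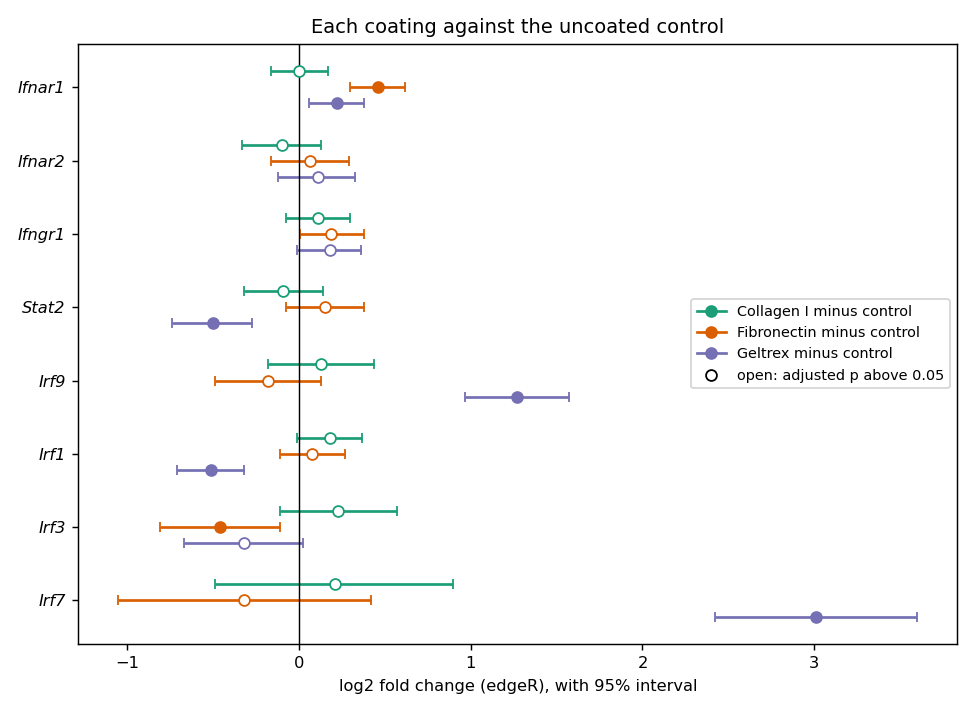
Log2 fold change of each coating relative to the uncoated control for the 8 members tested, with 95% intervals from edgeR. Filled points passed an adjusted p of 0.05 and open points did not, and the Geltrex values run from 3.01 (*Irf7*) to -0.51 (*Irf1*).

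On fibronectin, *Ifnar1*, a chain of the type I receptor, was higher than in the control and *Irf3* was lower, while the other 6 members tested did not pass. Thus 1 of 8 was higher and 1 of 8 was lower, where 31.9% of all genes tested passed (17.1% higher and 14.7% lower). No member differed at least 2-fold, compared with 6.66% of all genes, and the groups did not overlap in 1 member, *Ifnar1*, compared with 41.6% of all genes. The median log2 fold change was 0.072 over the members and -0.016 over all genes.

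*Ifnar1* (ENSMUSG00000022967, chr16:91485238-91507441, plus strand) had 58, 66.1, and 63.4 CPM in the control, 64.3, 65.3, and 58.4 on Collagen I, 85.5, 87.1, and 84.9 on fibronectin, and 75.7, 72.8, and 69.6 on Geltrex. The fibronectin samples were the highest, the Geltrex samples came next, and the control and Collagen I samples overlapped each other. The log2 fold change of fibronectin relative to the control was 0.46 ± 0.076 (SE, 95% interval 0.3 to 0.62, edgeR adjusted p = 0.000307), and Collagen I was lower than fibronectin by a similar amount (-0.45, edgeR adjusted p = 0.000235). Geltrex relative to the control gave 0.22 (95% interval 0.057 to 0.38, edgeR adjusted p = 0.0374), while relative to Geltrex the value was -0.21 on Collagen I and 0.24 on fibronectin (edgeR adjusted p = 0.0371 for each). Each of these last 3 differences was lost when any 1 of the 3 Geltrex samples was left out, and at least 1 of them was lost without any 1 fibronectin sample, Collagen I sample 1 or 3, or control sample 1 or 3 (edgeR adjusted p up to 0.152). They also missed the threshold with no filter on low counts (edgeR adjusted p = 0.119, 0.12, and 0.116, in that order) and with the Geltrex samples summed into 1 (edgeR adjusted p = 0.265, 0.248, and 0.351).

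The partner chain *Ifnar2* (ENSMUSG00000022971, chr16:91372783-91405589) lay between 13.4 and 17.8 CPM in all 12 samples and passed no comparison. Its log2 fold change relative to the control was 0.065 on fibronectin (95% interval -0.16 to 0.29, edgeR adjusted p = 0.68) and 0.11 on Geltrex (edgeR adjusted p = 0.476). *Ifngr1* (ENSMUSG00000020009, chr10:19591949-19610229), the ligand-binding chain of the interferon gamma receptor, ranged from 47.3 to 60.6 CPM. It was 0.19 higher on fibronectin than in the control, with an interval of 0.0075 to 0.38 and an edgeR adjusted p of 0.105. That difference passed only without fibronectin sample 2 (edgeR adjusted p = 0.0311). Its partner *Ifngr2*, which passes the signal of that receptor to JAK2, was lower on Geltrex, with 34.6 to 35 CPM compared with 48.9 to 50.6 in the control (log2 fold change -0.51, edgeR adjusted p = 8.52e-05).

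*Irf3* (ENSMUSG00000003184, chr7:44997648-45002848, plus strand), which encodes the factor activated by TBK1 after nucleic acid sensing, varied between the control samples. It shares 2.6% of its exon bases with *Bcl2l12* on the opposite strand, with 744 counts of *Bcl2l12* and 5318 of *Irf3* over all samples. Its level was 25, 18, and 15.3 CPM in the control, 21.7, 21.4, and 25.3 on Collagen I, 14.3, 11.3, and 16.8 on fibronectin, and 14.7, 16.7, and 15.2 on Geltrex. The control samples overlapped each of the other groups, while the Collagen I samples lay above all samples on fibronectin and Geltrex. Collagen I exceeded fibronectin by 0.69 on the log2 scale (SE 0.16, 95% interval 0.34 to 1.04, edgeR adjusted p = 0.00321) and Geltrex by 0.55 (95% interval 0.21 to 0.9, edgeR adjusted p = 0.0151). Fibronectin relative to the control gave -0.46 (95% interval -0.81 to -0.11, edgeR adjusted p = 0.0433), a call that was lost in 8 of the 12 fits that left out 1 sample (control 1 or 2, Collagen I 1, fibronectin 1 or 2, or any Geltrex sample, up to an edgeR adjusted p of 0.284) with only those groups in the fit (edgeR adjusted p = 0.0821), and with the Geltrex samples summed into 1 (edgeR adjusted p = 0.0752). Geltrex relative to the control gave -0.32, with an interval of -0.67 to 0.026 and an edgeR adjusted p of 0.149. The difference between Collagen I and Geltrex had an edgeR adjusted p of 0.158 with the Geltrex samples summed into 1, and of up to 0.0587 without Collagen I sample 3 or Geltrex sample 1 or 3.

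Collagen I relative to the control gave 0 calls among the 8 members by edgeR, 0 by DESeq2, and 0 at an unadjusted p under 0.05. Of all genes tested, 1.12% passed in this comparison (0.2% higher and 0.917% lower), and 0.131% did so with at least a 2-fold difference. The members' log2 fold changes lay between -0.1 (*Ifnar2*) and 0.23 (*Irf3*), with edgeR adjusted p-values of 0.366 to 0.988. The interval was widest for *Irf7*, from -0.49 to 0.9, so these samples allow a difference of up to 0.9 on the log2 scale. The groups did not overlap in 2 members, compared with 17.3% of all genes. In *Irf1* all Collagen I samples were above all control samples (0.18, 95% interval -0.011 to 0.37), and in *Stat2* they were all below (-0.089, 95% interval -0.32 to 0.14).

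Between the coatings, Collagen I and fibronectin differed in 2 of the 8 members (*Ifnar1* and *Irf3*), where 45% of all genes tested passed (22.1% higher and 22.9% lower on Collagen I). Collagen I and Geltrex differed in 6 of 8, with 37.1% of all genes passing (Collagen I was higher in 18.2% and lower in 19%). Fibronectin and Geltrex differed in 5 of 8, with 19.3% of all genes passing (10.3% higher and 9.06% lower on fibronectin). At least 2-fold differences were found in 0, 2, and 2 members in these comparisons, the 2 being *Irf7* and *Irf9*, and in 8.46%, 9.32%, and 3.98% of all genes. The groups did not overlap in 3, 6, and 5 members, and in 51.4%, 54.7%, and 42.7% of all genes. The medians over the members were 0.0096, -0.14, and -0.013 in these comparisons, compared with 0.022, 0.026, and -0.0049 over all genes, and each mixes members that were higher with members that were lower. Comparisons that share a group share its samples, so their calls are not independent of each other. With the Geltrex samples summed into 1, Collagen I and Geltrex differed in 3 of 8 members (*Irf7*, *Irf9*, and *Irf1*). Without Geltrex sample 1, these groups also differed in 3 of 8.

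Ratios of partner genes within a sample, which do not depend on library size, set pathway members beside each other. *Irf9* over *Stat2* in FPKM was 0.219 to 0.298 in the control, 0.288 to 0.328 on Collagen I, 0.18 to 0.255 on fibronectin, and 0.852 to 0.933 on Geltrex. The Geltrex samples lay above all the others, while the ranges of the control overlapped those of Collagen I and fibronectin. *Irf7* over *Irf3* was 0.367 to 0.666 on Geltrex and at most 0.0712 elsewhere. *Ifnar1* over *Ifnar2* was 2.82 to 3.09 on fibronectin and at most 2.6 in any other group. The ratios are a description of the same counts, and no test was run on them. Their size depends on the merged exon lengths of both genes, which are the same in every group.

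**Figure D4:**
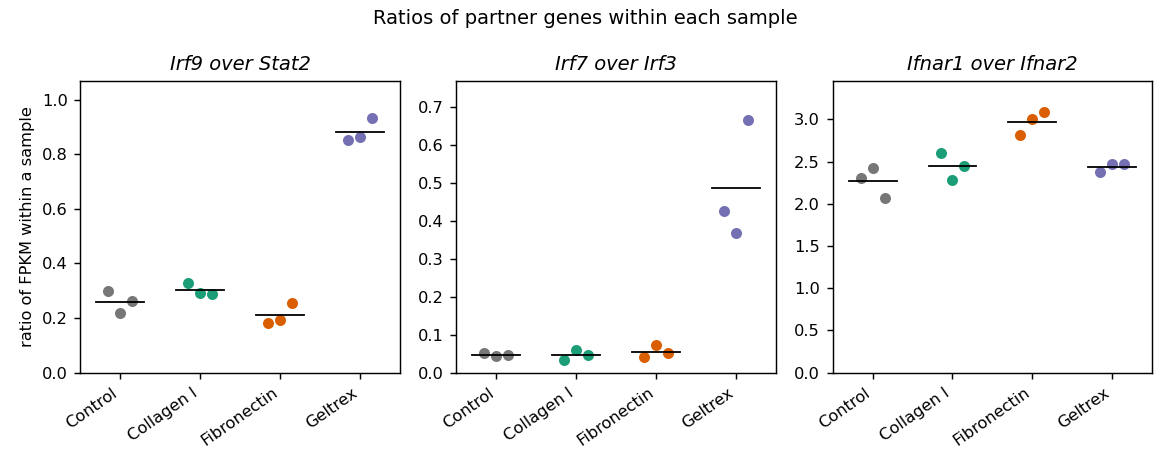
Ratio of the FPKM values of 2 partner genes within each sample, on axes that start at 0, by coating, with a line at the mean of 3 samples. *Irf9* over *Stat2* and *Irf7* over *Irf3* are highest on Geltrex (0.852 to 0.933 and 0.367 to 0.666), and *Ifnar1* over *Ifnar2* is highest on fibronectin (2.82 to 3.09).

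Among the Geltrex samples, sample 3 had the highest *Irf7*, *Irf9*, and *Stat2*, at 1.64, 1.37, and 1.26 times the mean of the other 2 samples in CPM. The other members tested lay between 0.895 (*Ifngr1*) and 0.971 (*Irf3*) times that mean. Without this sample, the log2 fold changes of *Irf7* and *Irf9* relative to the control remained past the threshold, as they did in every fit that left out 1 sample (2.74 to 3.31 for *Irf7* and 1.1 to 1.39 for *Irf9*). The lowest and highest of these edgeR adjusted p-values were 7.44e-07 and 1.13e-05 for *Irf7* and 5.09e-06 and 5.02e-05 for *Irf9*.

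Across the 12 samples, the genes most like *Irf9* in log2 CPM included *Ifit3* (Pearson r = 0.971) and *Irf7* (0.97), among 12319 genes with a mean of at least 1 CPM. *Irf7* was most like *Trim12c* (0.973), *Ces2g* (0.97), and *Irf9*. The genes most like *Stat2* were *AC132253.9* (0.965), *Slc40a1* (0.949), and *Zfp866* (0.943), and none of these is in the lists used here. *Irf1* was most like *Pik3ip1* (0.964) and *Irf3* most like *Atp6v0b* (0.984). *Ifnar1* was most like *Sh3bgrl* (0.979), and *Ifnar2* and *Ifngr1* had no gene above 0.893. Between members, r was -0.809 for *Stat2* with *Irf9* and 0.723 for *Stat2* with *Irf1*. These values describe 12 samples that share 4 group means, so they largely restate the differences between groups.

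The other parts of the pathway were taken from a list of 44 genes, of which 28 passed the filter. *Usp18* and *Ptpn6* passed it only through their counts on Geltrex, so the counts by direction are given for the other 26 genes. On Geltrex, 6 of the 26 were higher and 6 were lower than in the control, with a median log2 fold change of 0.091, where 33% of all genes tested passed. The kinase genes were *Jak2*, which was higher by 0.73 (edgeR adjusted p = 5.5e-05), *Jak1*, which was higher by 0.3 (edgeR adjusted p = 0.039), and *Tyk2*, at -0.087 (edgeR adjusted p = 0.692). *Irf2*, which encodes a factor that opposes IRF1 at shared sites, was lower by 0.31 (edgeR adjusted p = 0.0247).

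Of the feedback inhibitors, *Usp18*, which binds IFNAR2 and limits type I signaling, had 1, 6, and 2 counts in the control and 75, 87, and 133 on Geltrex. Its counts were 2 to 4 on Collagen I and 1 to 7 on fibronectin, so that Geltrex stood apart from all of them in counts. *Socs3*, which mainly restrains STAT3, moved in the opposite direction, from 24.7 ± 2.94 CPM (SD, n = 3) in the control to 8.83 ± 1.18 on Geltrex, a log2 fold change of -1.48 (edgeR adjusted p = 2.93e-06). *Stat6* was higher on Geltrex (1.06, edgeR adjusted p = 0.0286) at mean levels under 1 CPM. *Ptpn6*, which encodes the phosphatase SHP-1, had 1, 5, and 6 counts in the control and 11, 14, and 9 on Geltrex. Its counts were 1 to 7 on Collagen I and 7 to 14 on fibronectin, and those on fibronectin overlapped those on Geltrex. Like *Usp18*, it entered the test through the groups in which it was high.

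On fibronectin, 3 of the 26 were higher and 4 were lower than in the control, where 17.1% of all genes tested were higher and 14.7% lower. *Jak2* (0.57, edgeR adjusted p = 0.000672) and *Jak1* (0.38, edgeR adjusted p = 0.0119) were higher, as on Geltrex. *Socs3* (-0.5), *Stat5a* (-0.43), *Stat5b* (-0.38), and *Stat3* (-0.34) were lower, with edgeR adjusted p-values of 0.0175, 0.00175, 0.00261, and 0.00144. These drops were not particular to fibronectin. Mean levels on Geltrex and in the control were 18.2 and 23.4 CPM for *Stat5a*, 41.5 and 50.6 for *Stat5b*, and 194 and 247 for *Stat3*. On Collagen I, 1 of the 26 passed, where 1.12% of all genes did. This was *Stat3*, which was lower by 0.35 (edgeR adjusted p = 0.0218). It no longer passed with the Geltrex samples summed into 1, with only those groups in the fit, or without control sample 2 or 3, Collagen I sample 1 or 2, or Geltrex sample 1 or 2, each of which gave 0 calls in the list. With the Geltrex samples summed into 1, 6 of all 28 passed in the comparison of Geltrex with the control, compared with 14 when they were kept apart.

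Collagen I relative to fibronectin gave 6 higher and 6 lower of the 26, where 45% of all genes tested passed, and the calls ranged from 6 to 16 of all 28 when 1 sample was left out (6 without fibronectin sample 2, and 7 without fibronectin sample 1). *Jak2* and *Jak1* were lower (-0.66 and -0.61), and *Tyk2* (0.5), *Ikbke* (0.66), and *Tmem173*, the gene for STING (0.39), were higher. Fibronectin relative to Geltrex gave 3 higher and 4 lower of the 26, where 19.3% of all genes tested passed. *Ikbke* (-0.74, edgeR adjusted p = 0.0135) and *Tmem173* (-0.6, edgeR adjusted p = 0.0103) were lower on fibronectin than on Geltrex, and *Socs3* was higher (0.98, edgeR adjusted p = 0.00042). Collagen I relative to Geltrex gave 3 higher and 6 lower of the 26, where 37.1% of all genes tested passed, including *Jak2* (-0.82, edgeR adjusted p = 1.68e-05) and *Traf6* (-0.62, edgeR adjusted p = 6.03e-05), with *Socs3* among the higher (1.04, edgeR adjusted p = 0.000105). With the Geltrex samples summed into 1, the calls over all 28 went from 8 to 3 for fibronectin and from 11 to 6 for Collagen I, each relative to Geltrex.

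The genes that ISGF3 and GAS-binding factors are known to induce were described with a list of 44 interferon targets, of which 39 passed the filter. Since 9 of the 39 passed it only through their counts on Geltrex, counts are given for the 30 that pass with the Geltrex samples left out of the filter, except where all 39 are named. Of these 30, 29 were higher on Geltrex than in the control and 0 were lower, with a median log2 fold change of 1.95. The remaining gene was *Tapbp*, a peptide-loading gene that is named after its values were seen (0.16, edgeR adjusted p = 0.18). Of all genes tested, 16.4% were higher in this comparison, and the median over them was -0.012. Collagen I relative to Geltrex gave 27 of 30 lower, where 19% of all genes tested were lower. Fibronectin relative to Geltrex also gave 27 of 30 lower, where 9.06% of all genes tested were lower. The list was assembled with earlier results of these data known and is not independent evidence of its direction.

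**Figure D5:**
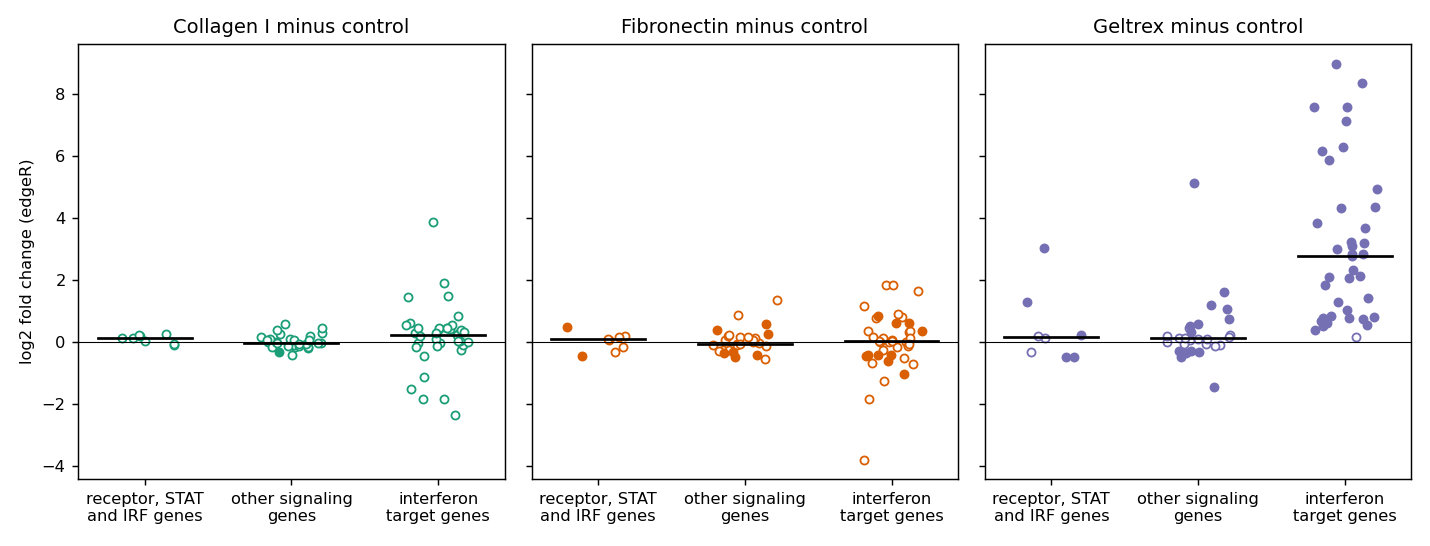
Log2 fold changes of the 8 members, 28 other signaling genes, and 39 interferon target genes that passed the filter, for each coating relative to the control, with a line at the median. Filled points passed an adjusted p of 0.05, and values of genes with no or few control counts depend on the fit's prior count and are not bounds. With the Geltrex samples left out, 26 of the 28 signaling genes and 30 of the 39 targets pass the filter. The rest entered only through their Geltrex counts, which favors values above 0 there. On Geltrex the 30 targets lie above 0 (0.16 to 5.86). The members and the 26 signaling genes (-1.48 to 1.17) lie on both sides of 0. The lists were chosen with earlier results of these data known.

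Several targets had almost no counts outside Geltrex. *Oas1a*, an antiviral oligoadenylate synthetase gene, had 0 counts in every control sample and 50 to 66 on Geltrex. *Oas2*, of the same family, had 0, 0, and 1 counts in the control and 105, 141, and 167 on Geltrex. *Oas3* had 0 counts in all 9 samples outside Geltrex and 21, 20, and 26 on Geltrex. *Ifi44* had 3 or fewer counts in each of those 9 samples and 140, 150, and 235 on Geltrex. *Iigp1*, an immunity-related GTPase gene, had at most 5 counts in those samples and 128 to 150 on Geltrex. The chemokine genes *Cxcl10* (13 to 19 counts on Geltrex, 3 or fewer elsewhere) and *Ccl5* (30 counts in each Geltrex sample, at most 1 elsewhere) had fewer counts but separated in the same way. The listed targets that did not pass the filter, *Mx1*, *Rsad2*, *Oasl1*, *Cmpk2*, and *Psmb9*, had at most 16 counts in any sample. *Rsad2* had 6 to 8 counts on Geltrex and up to 6 on fibronectin.

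On fibronectin, the 30 targets did not move together relative to the control, with 4 higher, 6 lower, and a median of 0.004, where 31.9% of all genes tested passed. *Ifih1* (0.82), *Parp14* (0.61), and *Eif2ak2* (0.6) were higher, and *Igtp* (-1.03), *Ifi27* (-0.62), and *Xaf1* (-0.46) were lower, with edgeR adjusted p-values between 0.00408 and 0.0418. The mean of *Ifih1* was much the same on fibronectin (6.17 CPM) and on Collagen I (6.21 CPM), compared with 3.5 CPM in the control. On Collagen I, 0 of the 30 passed relative to the control. Of all 39, 0 passed by edgeR and 1 by DESeq2, where 1.12% of all genes tested passed by edgeR. An unadjusted edgeR p under 0.05 was found for 8 of the 39 targets and for 2143 of the 14499 genes tested. Collagen I relative to fibronectin gave 9 higher and 3 lower of the 30, where 22.1% of all genes tested were higher and 22.9% lower. Among them were *Igtp* (1.57), *Ifit3* (1.13), and *Bst2* (1.16), which were higher, and *Zbp1* (-1.53) and *Eif2ak2* (-0.72), which were lower.

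Markers of cell state and of other cell types differed between the groups as well. Summed myotube markers (10 genes) lay at 7190 to 8020 CPM in the control, 7590 to 8300 on Collagen I, 2410 to 2710 on fibronectin, and 3440 to 3840 on Geltrex. Myotube markers were thus detected in each group, and no sample is labeled as undifferentiated for comparison. All 9 myotube markers tested were lower on fibronectin and on Geltrex than in the control. Between these coatings, 5 of the 9 were lower on fibronectin than on Geltrex. Summed myoblast and cycling markers (6 genes) were 283 to 335 CPM in the control, 256 to 288 on Collagen I, 568 to 709 on fibronectin, and 587 to 640 on Geltrex. The higher sums came from the cycling genes *Mki67*, *Cdk1*, and *Top2a*, which were all higher on fibronectin and on Geltrex than in the control. Of the myoblast genes, *Myod1* was lower on Geltrex (-0.23, edgeR adjusted p = 0.0489), and *Myf5* (-0.05, edgeR adjusted p = 0.737) and *Pax7* (-1.35, edgeR adjusted p = 0.0533) did not pass there.

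Summed leukocyte markers (10 genes) lay between 0.807 and 1.75 CPM in the control, 1.08 and 1.52 on Collagen I, 1.08 and 1.84 on fibronectin, and 1.45 and 2.25 on Geltrex. *Adgre1* and *H2-Aa* were at 0 counts in all 12 samples, *Ptprc* had 1 count in 1 sample on fibronectin, and *Cd68* made up most of the sum with 17 to 35 counts per sample. Summed endothelial markers (4 genes) were 1.79 to 2.75 CPM in the control, 0.966 to 2.34 on Collagen I, 2.21 to 3.49 on fibronectin, and 0.769 to 1.49 on Geltrex. Fibroblast markers (4 genes, with *Thy1* at 0) summed to 1960 to 2480 CPM in the control, 2070 to 2240 on Collagen I, 1670 to 1920 on fibronectin, and 1360 to 1410 on Geltrex. Most of this sum was 1 gene, which reached 54984 counts in the control, where a sample's summed counts were at most 58414. Of the 3 tested, 2 were lower on Geltrex than in the control and 1 did not pass (log2 fold changes -2.24 to 0.16). The part of these markers in the differences of the interferon genes was not tested.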

How the data were processed

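RNA-seq was performed on 12 samples of C2C12 GFP cells, 3 in each of 4 groups, and the groups were taken from the sample labels. Per the labels and the study's methods, Trimmomatic was used for trimming, HISAT2 for alignment, and featureCounts for assigning reads to genes, and the authors deposited the counts without normalization. The genome build, annotation, strand setting, and treatment of multiply mapped reads are not given in the sources used here. All 55536 identifiers matched GENCODE M21 (GRCm38), which supplied symbols, positions, and exon lengths.

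The count test was that of edgeR 4.0.16 (R 4.3.3). Low genes were removed by filterByExpr (minimum count 10, minimum total 15), and TMM factors set the library sizes. All 4 groups entered 1 quasi-likelihood fit with 8 residual degrees of freedom, from which 6 comparisons were drawn. P-values were two-sided, with adjustment by the Benjamini-Hochberg method over 14499 genes, and a gene passed at an adjusted p of at most 0.05. The standard error is the log2 fold change divided by the root of the F statistic. CPM used TMM library sizes, and FPKM divided CPM by the merged length of all annotated exons in kilobases. Every member was named, with the 6 largest changes of each list and comparison among genes that passed, partner genes, and the 3 genes most similar to each member (log2 CPM, prior count 2). The members and lists were chosen with earlier results of these data known. The values of 1 listed signaling gene are not reported here, although it stays in the counts. The procedure was tested on simulated data.

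Alternatives were DESeq2 1.42.0, RLE scaling, no filter, at least 10 counts in every sample, only the groups compared, the replicate number as a block, a fold change of at least 2, and leaving out each sample. Summing the Geltrex samples into 1 was added after seeing the data. Total counts of 22520404 to 27351766 per sample limit precision for genes with few counts, and limits drawn from a count of 0 cover counting error only.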

Additional observations from a re-analysis of the deposited data

How the results depend on the processing

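Of the 48 results for single members (8 members in 6 comparisons), all kept their direction and call with DESeq2, RLE scaling, at least 10 counts in every sample, and the replicate block. Calls that were lost are given beside the results of *Ifnar1*, *Irf3*, and *Stat2*. Of 576 values from fits without 1 sample, 29 lost their call and 4 gained one, none of them for *Irf7*, *Irf9*, or *Irf1*. The 4 were *Stat2* without fibronectin sample 3 (Collagen I relative to fibronectin, edgeR adjusted p = 0.00879, and fibronectin relative to the control, 0.0469), *Ifngr1* without fibronectin sample 2, and *Irf3* on Geltrex without control sample 3 (0.0435).

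Counts of genes that passed are over all 28 other signaling genes and all 39 targets tested, 2 and 9 of which passed the filter only through their Geltrex counts. They are given in the order Collagen I, fibronectin, and Geltrex relative to the control, Collagen I relative to fibronectin and to Geltrex, and fibronectin relative to Geltrex. A fold change of at least 2 left 0, 0, 2, 0, 2, and 2 of the members (from 0, 2, 5, 2, 6, and 5), 0, 0, 5, 0, 4, and 2 other signaling genes (from 1, 7, 14, 12, 11, and 8), and 0, 1, 28, 4, 28, and 29 targets (from 0, 10, 38, 12, 36, and 36). Without 1 sample, members ranged over 0 to 0, 1 to 3, 4 to 5, 2 to 3, 3 to 6, and 4 to 5. Signaling genes ranged over 0 to 1, 4 to 9, 8 to 15, 6 to 16, 7 to 12, and 5 to 8, with the lowest counts without control 1, Geltrex 2, fibronectin 2, Geltrex 2 or 3, and fibronectin 1 or Geltrex 3. Targets ranged over 0 to 1, 6 to 11 (6 without control 1 or fibronectin 2), 37 to 38, 10 to 13, 34 to 37, and 35 to 37. With the Geltrex samples summed into 1, the lone sample is assumed to vary like the other groups. Fewer members and fewer signaling genes then passed in each comparison with Geltrex. *Irf3* on fibronectin and *Stat3* on Collagen I, each relative to the control, also lost their calls. At least 10 counts in every sample left 21 targets tested, of which 19, 18, and 19 passed in the comparisons with Geltrex, since fewer genes entered. Only the groups compared gave 1 member on fibronectin and 0 signaling genes on Collagen I. No filter gave 2 signaling genes and 2 targets on Collagen I, and DESeq2 gave 1 target there.

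Deviations of same-numbered samples had correlations of -0.154 to 0.225, and no comparison was above 0.1 in every pair. Between Collagen I and fibronectin all same-numbered values were positive (0.0473, 0.169, and 0.225), and different-numbered pairs reached at most 0.0424. Different-numbered samples of other groups reached 0.328 (control 1 with Collagen I 3), above every same-numbered value. These values do not settle whether the numbers pair the samples. With the replicate number as a block, 0, 2, 5, 2, 6, and 5 members passed, the same numbers as without it.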
